A study of Danio rerio with 16 samples.

Results

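In adult zebrafish ventricles, 126 of 32520 gene IDs separated ankrd1a mutants from wild type in every library, whether the heart had been injured or not. The genes were chosen by their measured levels. In CPM (the count of a gene per 1000000 counts of its library), all 8 mutant libraries had to lie above, or all 8 below, all 8 wild-type libraries. The mean of at least 1 genotype had to reach 2 CPM, and the genotype means had to be at least 1.8-fold apart. Of 135 genes that met these thresholds, 9 were left out as IDs or symbol families fixed in the rule (symbols that start with mhc, col, hsp, rpl, rps, kcn or cacn, and single IDs), which leaves 38 genes higher and 88 lower in mutants. Because the genotype values chose the genes, every genotype difference given for them is a description, with no test.

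The 4 groups held 4 libraries each, and each library was made from 3 pooled ventricles, so a value is the level of a pool and not of a fish. The injured mutants carried the bns502 allele of ankrd1a, made with CRISPR/Cas9, and had a probe cooled in liquid nitrogen held against the ventricle for 25 seconds. The sham mutants carried the same allele and were touched with a probe at room temperature. The injured and the sham wild type were fish of the AB (Oregon) strain, treated in the same 2 ways. All fish were adult and recovered for 7 days. The labels do not say that mutants and wild type were siblings, nor which strain carried the allele, so the mutation and any other inherited difference between the 2 stocks cannot be told apart. The stated aim of the series was to identify targets that act downstream of ankrd1a as the heart regenerates.

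Ankrd1 is an ankyrin repeat protein of heart and skeletal muscle that binds the titin filament in the sarcomere and also enters the nucleus, where it acts on transcription. It is induced when heart muscle is stretched or damaged. The zebrafish heart regrows muscle after cryoinjury, and during this time fibroblasts, leukocytes and the epicardium expand around the wound. Roles of single genes below are those known in mammals unless zebrafish is named. Bulk RNA cannot tell fewer cells of a type from less RNA per cell.

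Total counts ran from 5623721 to 12254719 per library. Of the 2 IDs with the symbol ANKRD1, ENSDARG00000075263 had a mean after injury of 25.3 ± 9.78 CPM in mutants and 28.9 ± 19.2 CPM in wild type (SD, n = 4 each). After the sham operation its mean was 0.402 ± 0.239 CPM for mutants, against 1.57 ± 1.70 CPM for wild type. The other ID never passed 5 counts. Heart muscle genes were abundant in every library, with MYL7, the heart myosin light chain, at 8357 to 19166 CPM and cmlc1, another, at 5699 to 9622 CPM. The symbol table does not say which ID is ankrd1a, so the level of the targeted gene does not check the genotype labels. Libraries of the same group differed by more than sampling noise in all 24 pairs, where the chi-square divided by its degrees of freedom was 8.25 to 39.2.

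Being apart in all 16 libraries was rare. It held for 212 gene IDs at any level or fold, which is 0.652% of all (0.212% with the mutants above and 0.44% with the mutants below), and for 1.31% of the 13613 genes with at least 2 CPM in a genotype. The 126 genes are 0.387% of all IDs. Among the 38 higher genes the fold between genotype means had a median of 3.67 and ran from 1.86 to 53.7. Among the 88 lower genes it had a median of 2.91 and ran from 1.82 to 107, with SLIT1 at 0 counts in every mutant library. A mean of 10 CPM in a genotype was reached by 60 of the 126, 15 of the higher and 45 of the lower genes. The space between the groups was often narrow. The nearest libraries of the 2 genotypes were at least 2-fold apart for 7 higher and 13 lower genes, and within 1.1-fold for 9 higher and 23 lower genes.

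**Figure D1:**
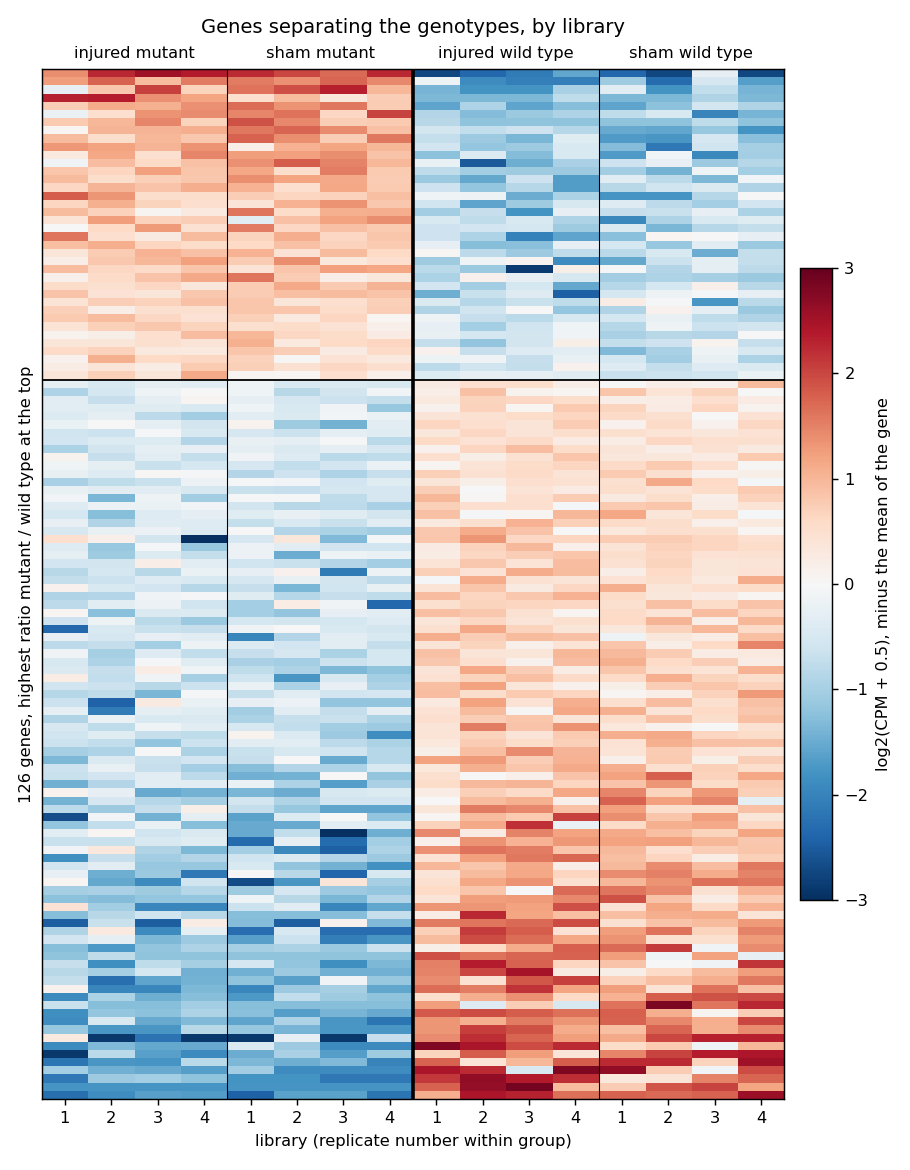
Level of the 126 genes in the 16 libraries, as log2(CPM + 0.5) minus the mean of the gene (colour, cut off at -3 and 3). Columns are libraries, with the mutants left of the wild type, and rows are genes ordered by the ratio of genotype means. Values lie on either side of the line between the genotypes without overlap in all rows, as the rule requires, while injured and sham libraries of a genotype look alike in most rows.

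The genes nearest to the thresholds show what the rule kept and left. Just inside the fold threshold were grk5l at 1.82-fold, RAD21 at 1.83-fold and si:ch73-308b14.1 at 1.86-fold. Just outside were MTFR1, elp5 and hhipl1, each at 1.78-fold. Just inside the level threshold were APOB at 2.07 CPM, ENSDARG00000110634 at 2.13 CPM and STX12 at 2.15 CPM in mutants. Just outside it were ftr80 at 1.96 CPM in mutants, and cygb2 at 1.94 CPM and TMEM151B at 1.93 CPM in wild type.

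The scale of the values mattered for membership. Division by the column sum, which the rule uses, leaves injured and sham libraries on different footings, because effective library sizes by TMM (a scaling that sets the bulk of genes equal between libraries) had factors of 0.815 to 1.26 that were larger in injured hearts. On the TMM scale 114 genes met the same rule, and 79 of the 126 were among them, 28 of the higher and 51 of the lower genes. The 47 others overlapped between genotypes in at least 1 library or fell under a threshold on that scale. Of the 47, grk5l, SP4 and si:ch211-196c10.15 were apart on that scale in all libraries and missed a threshold. Named genes among the 47 are listed below by group.

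By known role, 87 genes with a usable symbol fell into 9 groups, which were formed after their values were seen. They were 10 genes of muscle structure and the cytoskeleton, 7 of vesicle traffic, 9 of adhesion and guidance, 9 of the matrix, secreted factors and glycosylation, 18 of metabolism and transport, 11 of signalling, 6 of protein turnover, 8 of transcription and the nucleus, and 9 others. The remaining 39 have a clone name or no symbol. Counts by group describe the genes and are no enrichment.

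Muscle and cytoskeleton genes held 3 higher and 7 lower members, of which 7 also met the rule on the TMM scale and PDLIM5, COBL and DOK7 did not. SMYD1 (ENSDARG00000091253) encodes a lysine methyltransferase and myosin chaperone partner that zebrafish need to build sarcomeres. Its libraries were at 296, 335, 247 and 229 CPM in the injured mutants and 238, 287, 255 and 269 CPM in the sham mutants, against 131, 64.3, 65.0 and 132 CPM in the injured wild type and 108, 71.0, 123 and 72.7 CPM in the sham wild type. All 8 mutant values were above 200 CPM and all 8 wild-type values were below, and the mutant mean was 2.81-fold higher. CCDC39 (ENSDARG00000100981) encodes a ruler protein of motile cilia. It had 8.19, 15.5, 18.7 and 16.7 CPM in the injured mutants and 15.1, 12.8, 10.2 and 15.4 CPM in the sham mutants, against 0, 0.146, 0.279 and 0.628 CPM in the injured wild type and 0.148, 0, 2.31 and 0 CPM in the sham wild type. It was near 0 in wild type apart from replicate 3 of the sham wild type, and 32.1-fold higher in mutants. The third, myl4 (ENSDARG00000011519), encodes a myosin light chain that in mammals belongs to the atrium, and was at 1.88 to 7.09 CPM (median 4.24) in mutants, against 0.154 to 1.05 CPM (median 0.643) in wild type.

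Of the lower genes of this group, TXLNB (ENSDARG00000020594), which encodes the muscle protein beta-taxilin, was among the most abundant. Its values were 67.0, 28.1, 36.5 and 17.4 CPM in the injured mutants and 78.3, 44.4, 14.8 and 56.7 CPM in the sham mutants, against 104, 153, 178 and 124 CPM in the injured wild type and 211, 225, 170.3 and 221 CPM in the sham wild type. The highest mutant library stayed under the lowest wild-type library, and the mean was 4.04-fold lower. CRYAB (ENSDARG00000101380), a small heat shock chaperone of muscle that binds desmin and titin, was at 0 to 4.03 CPM (median 0.147) in mutants, against 7.69 to 18.3 CPM (median 13.2) in wild type. Its highest mutant value came from replicate 1 of the injured mutants, and the mean was 12.0-fold lower. For flnb (ENSDARG00000092281), a filamin that crosslinks actin, the range was 32.9 to 65.2 CPM (median 38.6) in mutants, against 74.3 to 177 CPM (median 101) in wild type, a 2.65-fold lower mean. DOK7 (ENSDARG00000060236), the activator of the muscle kinase MuSK at the nerve-muscle synapse, was at 1.62 to 6.04 CPM (median 2.82) in mutants, against 6.62 to 16.3 CPM (median 9.36) in wild type and 3.40-fold lower. COBL, an actin nucleator, was at 8.16 to 15.6 CPM in mutants, against 16.0 to 29.7 CPM in wild type. PDLIM5, a Z-disc adaptor, was at 2.85 to 7.99 CPM in mutants, against 8.48 to 17.0 CPM in wild type, and spice1, a centriole protein, at 0.477 to 2.85 CPM in mutants, against 3.31 to 8.18 CPM in wild type.

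**Figure D2:**
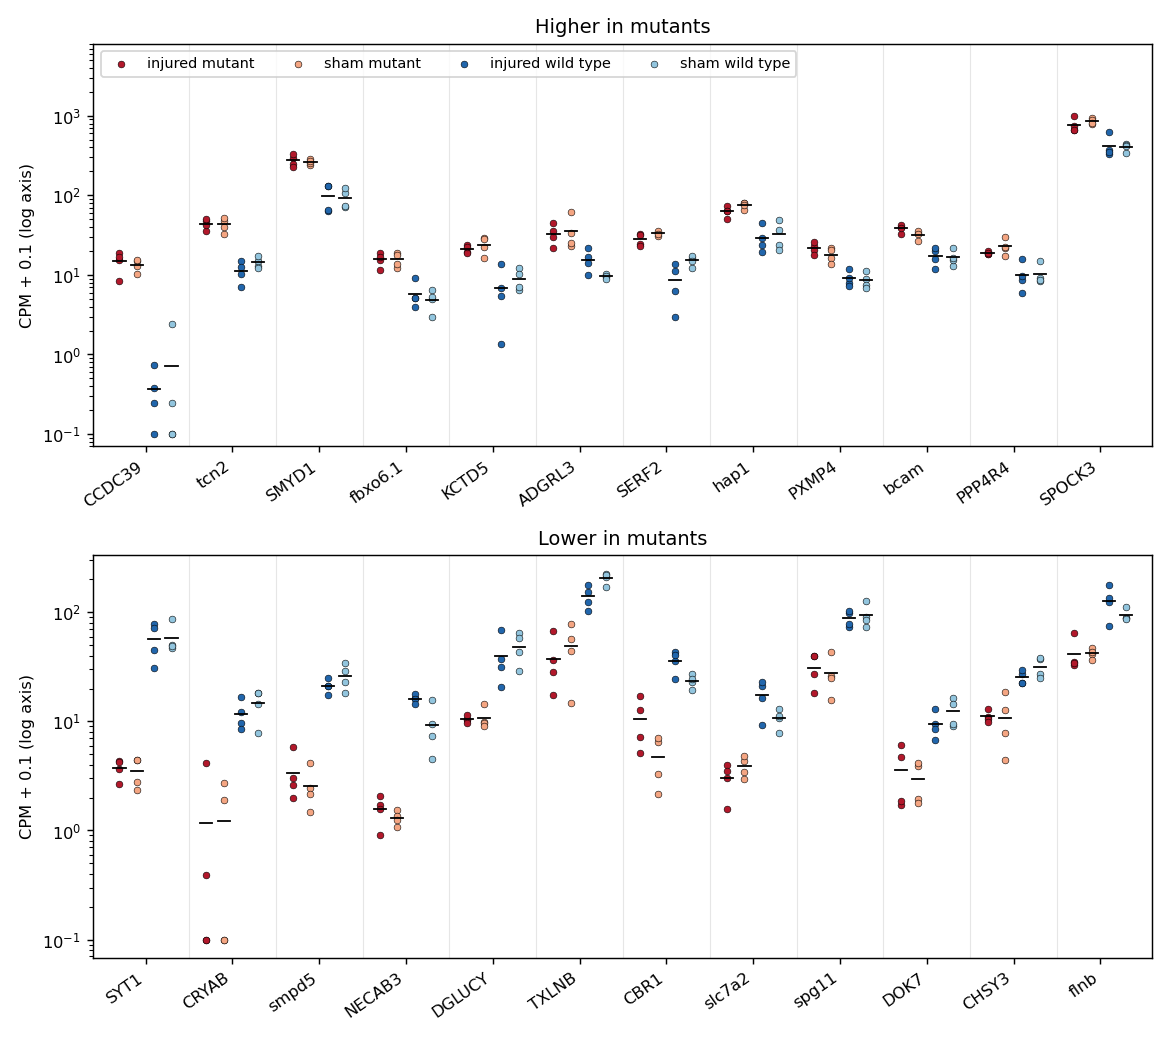
Level in each library of the 12 genes with the highest and the 12 with the lowest ratio of genotype means among named genes of at least 10 CPM, as CPM + 0.1 on a log axis, by group with the mutants left of the wild type. Points are libraries and bars are means (n = 4). For SYT1 the lowest wild-type library was 7.12 times the highest mutant library, while for SPOCK3 the groups nearly touch, with 661 CPM in the lowest mutant library and 629 CPM in the highest wild-type library.

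Vesicle traffic held SYT1 (ENSDARG00000030614), the calcium sensor of regulated exocytosis, with the widest gap of any named gene of at least 10 CPM shown in that plot. Its libraries were at 2.55, 3.56, 4.27 and 4.10 CPM in the injured mutants and 2.23, 4.31, 4.29 and 2.69 CPM in the sham mutants, against 30.7, 78.0, 72.2 and 45.3 CPM in the injured wild type and 49.9, 47.3, 49.1 and 86.8 CPM in the sham wild type. Every mutant value was below 5 CPM, every wild-type value was above 30 CPM, and the mean was 16.4-fold lower. Of the other lower genes here, SNAP29, a SNARE of autophagosome and endosome fusion, was at 13.0 to 32.6 CPM in mutants, against 33.4 to 60.3 CPM in wild type. RAB3IP, an exchange factor for Rab8, was at 2.28 to 16.0 CPM in mutants, against 19.2 to 25.7 CPM in wild type. The clathrin heavy chain gene cltcl1 was at 3.50 to 7.35 CPM in mutants, against 7.81 to 12.7 CPM in wild type, and myripa, a linker of Rab27 to myosin, at 1.22 to 1.70 CPM in mutants, against 1.92 to 4.15 CPM in wild type. The higher genes were zfyve9b, an endosomal SMAD anchor, at 2.67 to 5.01 CPM in mutants, against 0.377 to 2.31 CPM in wild type, and the endosomal SNARE gene STX12, at 1.67 to 2.58 CPM in mutants, against 0 to 1.48 CPM in wild type. Of these 7 genes, 4 met the rule on the TMM scale, while zfyve9b, RAB3IP and SNAP29 did not.

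The list of 34 synaptotagmin and SNARE names holds 3 members, SYT1, SNAP29 and STX12. It was chosen with SYT1 already known from these data. Of its 17 other tested genes, the 1 called lower in mutants was SYT7 (ENSDARG00000078060), another calcium sensor of exocytosis, in both treatments, at a log2 fold change of -2.63 ± 0.68, adjusted p = 0.0477 in injured and -2.08 ± 0.60, adjusted p = 0.049 in sham hearts (edgeR). None was called higher in either. Of all genes, 2.56% were called in injured and 5.81% in sham hearts, so the count is no result about this list.

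In adhesion and guidance, 2 genes were higher and 7 lower, and 7 met the rule on the TMM scale, all but PCDH18 and EPHB3. ADGRL3, the adhesion receptor latrophilin 3, was at 21.9 to 61.3 CPM (median 31.8) in mutants, against 8.91 to 21.5 CPM (median 10.1) in wild type, 2.75-fold higher by means. The laminin receptor gene bcam was at 26.9 to 42.8 CPM (median 34.5) in mutants, against 11.7 to 22.0 CPM (median 16.1) in wild type. SLIT1 (ENSDARG00000099446), a ligand of Robo guidance receptors, had no count in any mutant library. In wild type it had 5.26, 10.1, 12.0 and 2.76 CPM in injured and 2.37, 5.72, 6.39 and 3.38 CPM in sham hearts. Set against a floor of 3 counts per mutant library, its mutant mean was at least 15.1-fold lower. FERMT1, a kindlin that activates integrins, had at most 2 counts in a mutant library and was at 0 to 0.268 CPM in mutants, against 0.377 to 8.09 CPM in wild type. Its counts summed to 3 in mutants and 166 in wild type. Their ratio after division by the total counts of each genotype, wild type over mutant, was 65.2, with a 95% counting interval of 21.9 to 319. The interval leaves out the spread between pools and the choice of the gene by this same difference, so it is no test. EPHB3, an ephrin receptor, was at 3.22 to 18.8 CPM in mutants, against 23.5 to 42.1 CPM in wild type. UNC5B, a netrin receptor, was at 1.74 to 3.57 CPM in mutants, against 3.84 to 8.04 CPM in wild type. The neuronal leucine-rich repeat gene LRRN1 was at 0 to 0.446 CPM in mutants, against 2.66 to 6.58 CPM in wild type. The protocadherin genes PCDH18 and PCDH10 were at 2.503 to 4.03 CPM in mutants, against 4.61 to 8.09 CPM in wild type, and at 0.524 to 1.60 CPM in mutants, against 2.56 to 4.90 CPM in wild type.

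Among matrix, secreted and glycosylation genes, 2 were higher and 7 lower, and 7 met the rule on the TMM scale, all but CHSY3 and otoa. SPOCK3 (ENSDARG00000070266), a secreted proteoglycan of the testican family, had the highest level of all the higher genes. It was at 661 to 988 CPM (median 796) in mutants, against 332 to 629 CPM (median 397) in wild type, and 1.95-fold higher by means. The mucin-type glycosylation gene galnt14 was at 3.14 to 6.67 CPM in mutants, against 0.438 to 1.63 CPM in wild type. Of the lower genes, 3 encode sugar-modifying enzymes. CHSY3, a chondroitin synthase, was at 4.30 to 18.4 CPM (median 10.7) in mutants, against 22.2 to 38.1 CPM (median 27.1) in wild type. B3GLCT, which extends fucose on thrombospondin repeats, was at 10.4 to 18.0 CPM in mutants, against 26.9 to 38.9 CPM in wild type, and the galactose sulfotransferase gene GAL3ST1 at 0.318 to 1.44 CPM in mutants, against 1.95 to 7.40 CPM in wild type. The elastic fibre gene EFEMP1 was at 0.403 to 1.53 CPM in mutants, against 4.36 to 12.9 CPM in wild type. IGFBP2, which binds insulin-like growth factors, was at 0.178 to 2.54 CPM in mutants, against 3.95 to 13.1 CPM in wild type. The gene otoa, for an inner ear matrix protein, was at 0 to 2.49 CPM in mutants, against 2.76 to 9.94 CPM in wild type. FIBIN, a secreted factor named in zebrafish for its role in fin bud initiation, had at most 3 counts in a mutant library and was at 0 to 0.403 CPM in mutants, against 0.837 to 12.3 CPM in wild type.

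Metabolism and transport was the largest group, with 5 higher and 13 lower genes, of which 13 met the rule on the TMM scale and RBP4, SLC4A2, atpv0e2, TTPA and CRYM did not. On the higher side, tcn2, the blood carrier of vitamin B12, was at 32.7 to 51.8 CPM (median 44.9) in mutants, against 6.88 to 17.0 CPM (median 12.7) in wild type, 3.43-fold higher. PXMP4, a peroxisomal membrane protein, was at 13.6 to 25.8 CPM (median 20.5) in mutants, against 6.76 to 11.7 CPM (median 8.38) in wild type. ELOVL1, which lengthens fatty acids, was at 2.65 to 7.25 CPM in mutants, against 0.139 to 1.69 CPM in wild type. The pancreatic amylase gene amy2a was at 1.11 to 6.05 CPM in mutants, against 0 to 0.251 CPM in wild type, and APOB, the lipoprotein scaffold of liver and gut, at 1.34 to 3.80 CPM in mutants, against 0 to 0.177 CPM in wild type. These last 2 genes had at most 2 counts in any wild-type library.

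The lower metabolic genes began with smpd5 (ENSDARG00000059811), a mitochondrial sphingomyelinase described in zebrafish. Its libraries were at 1.88, 5.69, 2.501 and 2.94 CPM in the injured mutants and 2.36, 4.03, 2.07 and 1.39 CPM in the sham mutants, against 21.1, 17.5, 25.0 and 21.1 CPM in the injured wild type and 28.9, 23.0, 17.9 and 34.3 CPM in the sham wild type. Its highest mutant value, 5.69 CPM, was about a factor of 3.08 under its lowest wild-type value, and the mean was 8.26-fold lower. CERS3, a ceramide synthase, was at 0 to 0.441 CPM in mutants, against 1.04 to 7.11 CPM in wild type. Of the 17 other tested genes of the sphingomyelin and ceramide list, 0 were called between genotypes in injured or in sham hearts. Over all genes the shares called were 2.56% in injured and 5.81% in sham hearts. DGLUCY, the mitochondrial D-glutamate cyclase, was at 8.98 to 14.5 CPM (median 9.95) in mutants, against 20.6 to 69.0 CPM (median 40.3) in wild type, 4.19-fold lower. CBR1, which reduces carbonyl compounds, was at 2.07 to 17.1 CPM (median 6.68) in mutants, against 19.4 to 42.8 CPM (median 25.9) in wild type, and slc7a2, which imports arginine and lysine, at 1.48 to 4.73 CPM (median 3.36) in mutants, against 7.81 to 22.9 CPM (median 12.0) in wild type.

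Other lower metabolic genes included some of the most abundant. RBP4, the blood carrier of retinol, was at 79.1 to 139 CPM in mutants, against 170.2 to 224 CPM in wild type. SLC4A2, a chloride and bicarbonate exchanger, was at 75.0 to 142 CPM in mutants, against 149 to 235 CPM in wild type. The complex III assembly gene uqcc5 was at 5.70 to 11.6 CPM in mutants, against 15.1 to 26.8 CPM in wild type. TTPA, the vitamin E transfer protein, was at 2.92 to 5.24 CPM in mutants, against 6.78 to 14.8 CPM in wild type. TKT, the transketolase of the pentose phosphate pathway, was at 0.356 to 1.31 CPM in mutants, against 2.13 to 11.6 CPM in wild type. The proton pump subunit gene atpv0e2 was at 1.81 to 2.68 CPM in mutants, against 3.22 to 5.84 CPM in wild type, the anchor synthesis gene PIGP at 1.27 to 4.45 CPM in mutants, against 5.03 to 11.7 CPM in wild type, and CRYM, which binds thyroid hormone, at 0 to 0.735 CPM in mutants, against 0.754 to 6.00 CPM in wild type.

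Signalling genes had 2 higher and 9 lower members, but 3 of the 11 met the rule on the TMM scale. Those that did not were NECAB2, PPP4R4, grk5l, RGS5, PPP1R9B, INPP4A, pi4kab and GRIN3B. Of a pair of related calcium-binding proteins, NECAB3 (ENSDARG00000074794) was at 0.805 to 1.96 CPM (median 1.36) in mutants, against 4.44 to 17.7 CPM (median 14.9) in wild type, 9.45-fold lower in mutants, and met the rule on both scales. NECAB2 (ENSDARG00000056745) was at 2.65 to 7.38 CPM (median 3.92) in mutants, against 0.139 to 2.23 CPM (median 1.04) in wild type, 3.69-fold higher in mutants, with genotypes that overlapped on the TMM scale. PPP4R4, a subunit of protein phosphatase 4, was at 17.2 to 29.9 CPM (median 19.2) in mutants, against 5.85 to 16.0 CPM (median 8.69) in wild type. Of enzymes that act on phosphoinositides, INPP4A was at 5.40 to 17.1 CPM in mutants, against 17.1 to 33.0 CPM in wild type, and pi4kab at 0.178 to 1.91 CPM in mutants, against 2.51 to 6.03 CPM in wild type. The kinase gene TNIK was at 11.2 to 26.9 CPM in mutants, against 30.0 to 45.1 CPM in wild type. RGS5, a brake on G protein signals that marks mural cells, was at 5.62 to 11.4 CPM in mutants, against 12.2 to 19.2 CPM in wild type, and the receptor kinase gene grk5l at 4.41 to 7.93 CPM in mutants, against 8.73 to 12.1 CPM in wild type. PPP1R9B, a scaffold of protein phosphatase 1, was at 0.318 to 3.34 CPM in mutants, against 3.55 to 7.11 CPM in wild type. The glutamate receptor gene GRIN3B was at 0.262 to 1.59 CPM in mutants, against 1.61 to 6.69 CPM in wild type, and the Wnt pathway gene AMER2 at 0.134 to 0.711 CPM in mutants, against 0.922 to 5.33 CPM in wild type.

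In protein turnover, 3 genes were higher and 3 lower, and 3 met the rule on the TMM scale, which SERF2, TRIM3 and ZDHHC16 did not. The ubiquitin ligase adaptor genes fbxo6.1 and KCTD5 were higher, with fbxo6.1 at 11.5 to 18.9 CPM (median 16.1) in mutants, against 2.84 to 9.02 CPM (median 5.00) in wild type. KCTD5 was at 16.4 to 29.4 CPM (median 22.3) in mutants, against 1.25 to 13.8 CPM (median 6.84) in wild type. SERF2, which speeds amyloid formation, was at 23.09 to 35.3 CPM (median 32.3) in mutants, against 2.89 to 17.2 CPM (median 13.0) in wild type. The ubiquitin ligase gene TRIM3 was lower, at 25.9 to 42.7 CPM in mutants, against 55.8 to 96.6 CPM in wild type. ern1, the stress sensor kinase of the endoplasmic reticulum, was at 7.75 to 15.6 CPM in mutants, against 17.4 to 50.7 CPM in wild type, and the palmitoyl transferase gene ZDHHC16 at 2.20 to 4.98 CPM in mutants, against 5.02 to 11.5 CPM in wild type.

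Transcription and nuclear genes were 1 higher and 7 lower, with 4 of them meeting the rule on the TMM scale, and RAD21, SP4, lrrfip1b and NFE2L1 not. TCERG1L was at 2.68 to 6.68 CPM in mutants, against 0.177 to 1.95 CPM in wild type. NFE2L1, which raises proteasome genes under stress, was at 4.31 to 18.2 CPM in mutants, against 21.7 to 34.0 CPM in wild type, and SP4 at 8.89 to 13.8 CPM in mutants, against 18.2 to 22.4 CPM in wild type. The limb bud factor SP8 had at most 1 count in a mutant library and was at 0 to 0.178 CPM in mutants, against 0.461 to 3.91 CPM in wild type. Its counts summed to 1 in mutants and 132 in wild type, and their ratio after the same division, wild type over mutant, was 156, with a counting interval of 27.4 to 6190.4. This interval too leaves out the spread between pools and the choice of the gene. The cohesin subunit gene RAD21 was at 2.55 to 5.35 CPM in mutants, against 5.38 to 10.2 CPM in wild type, and lrrfip1b at 5.88 to 8.90 CPM in mutants, against 10.1 to 23.4 CPM in wild type. TULP4 was at 4.17 to 8.53 CPM in mutants, against 9.76 to 19.1 CPM in wild type, and nufip1 at 2.13 to 4.43 CPM in mutants, against 5.68 to 10.0 CPM in wild type.

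In the group of other named genes, olfcq11, hap1, fam210b and FAM167B did not meet the rule on the TMM scale. Of these hap1, a huntingtin partner in vesicle transport, was at 51.0 to 80.2 CPM (median 69.5) in mutants, against 19.6 to 48.5 CPM (median 26.4) in wild type. The odorant receptor gene olfcq11 was also higher, at 0.939 to 8.10 CPM in mutants, against 0 to 0.888 CPM in wild type, as was prr13, at 3.41 to 8.20 CPM in mutants, against 0.279 to 2.01 CPM in wild type. The lower gene spg11, which restores lysosomes, was at 15.6 to 43.0 CPM (median 26.4) in mutants, against 72.6 to 126 CPM (median 88.1) in wild type, 3.11-fold lower. FAM167B was at 9.60 to 20.7 CPM in mutants, against 23.4 to 54.3 CPM in wild type, and fam210b, a mitochondrial gene of red cell maturation, at 6.71 to 13.2 CPM in mutants, against 13.4 to 30.8 CPM in wild type. The inflammasome sensor gene nlrp1 was at 0.159 to 1.78 CPM in mutants, against 3.35 to 10.2 CPM in wild type. bean1 was at 1.32 to 2.78 CPM in mutants, against 4.66 to 8.09 CPM in wild type, and ST7 at 0 to 2.11 CPM in mutants, against 2.14 to 6.92 CPM in wild type.

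Genes with a clone name or no symbol made up 39 of the 126, or 31.0%, against 11.4% of the 13613 genes with at least 2 CPM in a genotype. These 2 sets were not matched for level beyond that minimum, and the part of level in the difference was not tested. Of them 15 were higher, 24 were lower, and 26 met the rule on the TMM scale. The most abundant were si:ch73-308b14.1, at 161 to 342 CPM in mutants, against 97.1 to 134 CPM in wild type, si:dkeyp-1h4.9, at 29.5 to 139.9 CPM in mutants, against 8.34 to 24.8 CPM in wild type, and si:ch73-43g23.1, at 47.8 to 76.4 CPM in mutants, against 101 to 187 CPM in wild type. Wide gaps were seen for si:dkey-74i1.3, at 5.69 to 10.4 CPM in mutants, against 0.155 to 2.41 CPM in wild type, and for zgc:171242, at 2.01 to 4.32 CPM in mutants, against 0 to 0.532 CPM in wild type. The files give no role for these genes, and they were picked here after their values were seen.

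All 126 genes were more than 1.5-fold apart in the same direction in injured and in sham hearts. The median fold was 3.63 in injured and 3.83 in sham hearts for the higher genes, and 2.98 in injured and 2.97 in sham hearts for the lower genes. The rule fixes the direction in both treatments, so this is no independent sign of stability. The largest departures were at low levels. For FERMT1 the log2 ratio of means plus 0.5 CPM was -1.52 in injured and -3.45 in sham hearts, and for si:dkey-193d10.1 it was -3.94 in injured and -1.80 in sham hearts.

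**Figure D3:**
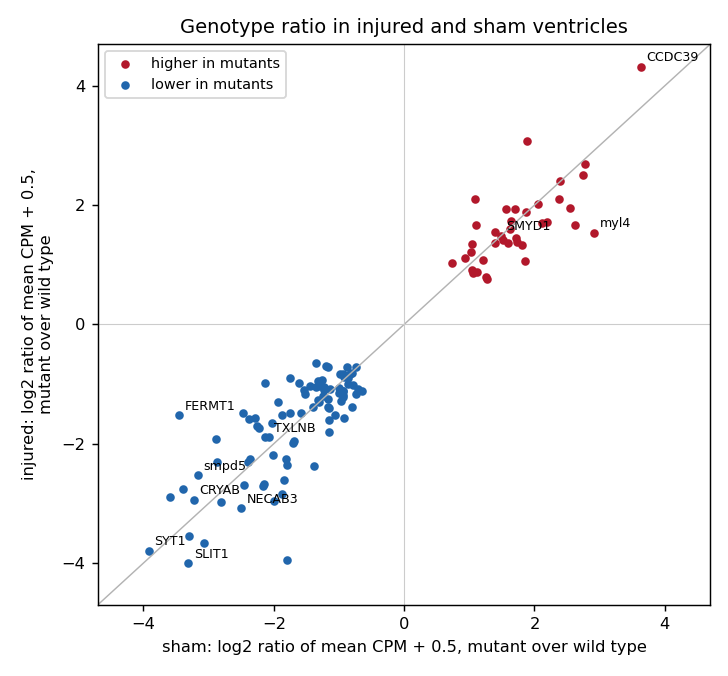
Log2 ratio of mean CPM + 0.5, mutant over wild type, in sham (horizontal) and injured hearts (vertical), 1 point for each of the 126 genes, with the line of equal ratios. Points follow the line, FERMT1 lies above it at -1.52 against -3.45, and myl4 below it at 1.54 against 2.92.

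Whether the difference between genotypes changed with injury was tested as an interaction in edgeR, over all 14986 genes that passed the filter on low counts, a filter that all 126 passed. No gene was called at an adjusted p below 0.05, 0 of the 126 and 0% of all, and the smallest adjusted p over all genes was 0.0876. By unadjusted p below 0.05 there were 12 of the 126, or 9.52%, against 7.71% of all genes, and DESeq2 called 0 of the 126. The share of all genes that DESeq2 called for the interaction was not counted, so its 0 cannot be set against genes at large. The smallest p was that of myl4. It had 1.88, 4.09, 4.12 and 4.37 CPM in the injured libraries, against 6.29, 7.09, 5.56 and 3.67 CPM in the sham libraries of mutants, and 1.05, 0.877, 0.976 and 0.754 CPM in the injured libraries, against 0.296, 0.279, 0.532 and 0.154 CPM in the sham libraries of wild type. Its log2 interaction was -2.07 ± 0.55 (SE; unadjusted p = 0.00138, edgeR adjusted p = 0.309). Next were COBL at 0.84 ± 0.26 (edgeR adjusted p = 0.415) and INPP4A at 1.00 ± 0.31 (edgeR adjusted p = 0.431). The order of libraries that the rule demands also limits how far the injury effect can differ between genotypes.

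The effect of injury within a genotype was not used by the rule, but it is bounded by it, since a gene that moved far with injury could hardly keep all 8 libraries of each genotype apart. In mutants, edgeR called 10 of the 126, or 7.94%, against 28.9% of all genes. All 10 were lower in injured hearts, where 12.4% of all genes were lower and 16.5% higher. In wild type 18 were called, or 14.3%, against 25.3% of all genes. Of these 1 was higher and 17 were lower, where 13.9% of all genes were higher and 11.5% lower. In both genotypes together 1 gene was called, against 17.6% of all genes, and 99 of the 126 were called in neither. The count fell to 6 in mutants without replicate 4 of the sham mutants, and to 8 in wild type without replicate 2 of the sham wild type. In a fit of only the mutant libraries, where 97 of the 126 passed the filter, 15 were called, all lower. DESeq2 called 14 in mutants, 1 higher and 13 lower. The share of all genes called was not counted for these other fits, nor for genes called in neither genotype. These counts therefore cannot be set against genes at large. The median log2 fold change of the 126 was -0.29 in mutants and -0.39 in wild type, while that of all genes was -0.01 in mutants and 0.01 in wild type.

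The direction of these calls turned with the scaling. The rule bounds the change with injury on column sums, and TMM scaling places the same changes lower. The direction on the TMM scale is therefore partly set by the choice of genes and is no result about them. On column sums, the scale of the rule, the median log2 change of all genes moved up by 0.36 in mutants and by 0.46 in wild type. There edgeR called 8 of the 126 in mutants, all 8 higher in injured hearts, against 33.8% of all genes, 30.6% higher and 3.11% lower. In wild type it called 10, of which 6 were higher and 4 lower, against 37.2% of all genes, 35% higher and 2.2% lower. The median of the 126 on this scale was 0.05 in mutants and 0.07 in wild type. Calls made on both scales numbered 0 in mutants and 5 in wild type, and the share of all genes called on both was not counted.

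Those 5 genes were called in wild type on both scales. On column sums their edgeR adjusted p ran from 0.0041 for si:dkey-193d10.1 to 0.0494 for si:dkey-28g23.6. FERMT1 had 2.41, 0.438, 1.53 and 0.377 CPM in the injured libraries, against 3.26, 8.09, 3.19 and 5.38 CPM in the sham libraries. All 4 injured values were below all 4 sham values, and its log2 change was -2.51 ± 0.57 (SE; edgeR, adjusted p = 0.00466). EFEMP1 had 4.36, 6.72, 8.23 and 4.65 CPM in the injured libraries, against 6.51, 11.4, 12.2 and 12.9 CPM in the sham libraries, a log2 change of -1.29 ± 0.30 (SE; edgeR, adjusted p = 0.00477). SERF2 had 6.16, 11.1, 13.7 and 2.89 CPM in the injured libraries, against 12.3, 16.2, 17.2 and 14.9 CPM in the sham libraries, a change of -1.29 ± 0.32 (SE; edgeR, adjusted p = 0.00669). The others were si:dkey-28g23.6 at -1.48 ± 0.39 (SE; edgeR, adjusted p = 0.00922) and si:dkey-193d10.1, the only 1 of the 5 that was higher in injured hearts, at 1.49 ± 0.45 (SE; edgeR, adjusted p = 0.0217). Without replicate 3 of the sham wild type 0 members were called higher, so the call of si:dkey-193d10.1 was lost there. The deposited counts of si:dkey-28g23.6 and si:dkey-193d10.1 were fractional in most libraries and were rounded before the test. In mutants FERMT1, at 0 to 0.268 CPM, was too low for a fall to be seen at this depth, and si:dkey-193d10.1 was at 0 to 0.894 CPM.

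The gene called in both genotypes on the TMM scale was fam210b. In mutants it had 6.71, 7.82, 8.38 and 12.1 CPM in the injured libraries, against 13.2, 12.9, 9.06 and 10.6 CPM in the sham libraries, and a log2 change of -0.74 ± 0.23 (SE; edgeR, adjusted p = 0.022). In wild type it had 17.9, 15.5, 19.5 and 19.0 CPM in the injured libraries, against 19.2, 30.8, 21.1 and 13.4 CPM in the sham libraries, and a change of -0.69 ± 0.22 (SE; edgeR, adjusted p = 0.0283). On column sums it was called in neither genotype, at -0.37 (adjusted p = 0.248) in mutants and -0.23 (adjusted p = 0.439) in wild type by edgeR. Of the 24 genes named by ratio, those called on the TMM scale were SPOCK3 in mutants, at -0.52 ± 0.18 (SE; edgeR, adjusted p = 0.0429), and tcn2, CHSY3 and SERF2 in wild type, with tcn2 at -0.82 ± 0.22 (SE; edgeR, adjusted p = 0.0109). For CHSY3 the change was -0.78 ± 0.27 (SE; edgeR, adjusted p = 0.0443). On column sums SPOCK3, tcn2 and CHSY3 were not called, at -0.15 (adjusted p = 0.558), -0.36 (adjusted p = 0.198) and -0.32 (adjusted p = 0.402) by edgeR. With 1 library left out at a time, edgeR lost the call of SPOCK3 in 8 of the 16 fits (adjusted p = 0.0507 to 0.123, log2 change -0.56 to -0.42), which were those without injured mutants 1 to 3, sham mutants 1 to 4 or sham wild type 3. The call of CHSY3 was lost in 10 of the 16 fits (adjusted p = 0.0503 to 0.122, log2 change -0.86 to -0.68), namely without any 1 of the injured wild type, sham wild type 1 to 3, injured mutants 1 or 3, or sham mutant 2. For fam210b the mutant call was lost in 3 of the 16 fits (adjusted p = 0.0597 to 0.0692, log2 change -0.68 to -0.65), without injured mutants 1 or 3 or sham mutant 2, and the wild-type call in 4 of the 16 fits (adjusted p = 0.057 to 0.145, log2 change -0.68 to -0.45), without injured wild type 1 or 2 or sham wild type 2 or 3. A fit of only the wild-type libraries did not call fam210b either, at -0.67 (adjusted p = 0.0638), nor did the replicate block, at -0.67 (adjusted p = 0.0536). Without the filter on low counts SPOCK3 was at -0.51 (adjusted p = 0.0583) in mutants.

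**Figure D4:**
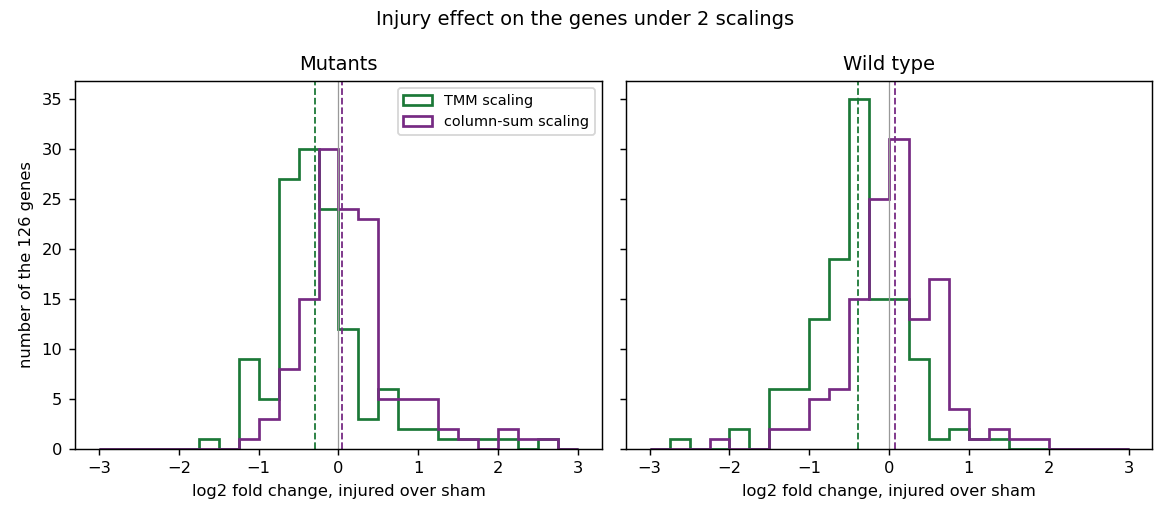
Log2 fold change of injured over sham hearts for the 126 genes, in mutants (left) and wild type (right), under TMM scaling and under column-sum scaling, with dashed lines at the medians. The TMM medians lie at -0.29 in mutants and -0.39 in wild type, and the column-sum medians at 0.05 in mutants and 0.07 in wild type.

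Zebrafish keep many genes as pairs of paralogs, and 38 of the 126 had another gene ID of the same symbol, or of the same symbol with another paralog letter. How the counting program divided reads shared by such pairs is not given in the sources used here. Of these 38, ST7 had fractional deposited counts, as at 15.73 in replicate 1 of the injured mutants. For the others of the 38 the counts of the member were whole in every library, so they show no reads divided in fractions. Whether shared reads were given whole to a single ID was not tested, so the values of single IDs remain uncertain. When the counts of a gene and its paralog were added, the sum still met the rule for 14 of the 38 and no longer met it for 24. The sums that still met it included SYT1, SMYD1, CRYAB, ADGRL3, B3GLCT, EPHB3, SLC4A2 and flnb. For all of these except flnb the paralog averaged below 10 CPM in both genotypes. For SYT1 it was at 0 CPM. It averaged 0 CPM in mutants and 0.0314 CPM in wild type for CRYAB, and 0.331 CPM in mutants and 0.111 CPM in wild type for ADGRL3. For SMYD1 it averaged 0.577 CPM in mutants and 1.07 CPM in wild type. Where the paralog adds so little, the sum repeats the level of the member and is no check of it.

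For 5 members the mean of the paralog lay the other way, with both at 10 CPM or more in a genotype. TXLNB averaged 42.9 ± 23.09 CPM in mutants and 173 ± 44.9 CPM in wild type, and its paralog txlnbb 208 ± 72.2 CPM in mutants and 174 ± 78.7 CPM in wild type (SD, n = 8 each). TRIM3 averaged 37.4 ± 5.63 CPM in mutants and 70.2 ± 13.4 CPM in wild type, and the other TRIM3 (ENSDARG00000063711) 103 ± 22.9 CPM in mutants and 68.0 ± 18.6 CPM in wild type. PDLIM5 averaged 5.99 ± 2.06 CPM in mutants and 12.1 ± 2.78 CPM in wild type, and the other PDLIM5 (ENSDARG00000027600) 162 ± 18.5 CPM in mutants and 154 ± 28.4 CPM in wild type. For KCTD5 and its second ID (ENSDARG00000015722) the means were 22.5 ± 4.50 CPM in mutants and 7.83 ± 3.99 CPM in wild type, and 10.8 ± 4.64 CPM in mutants and 13.5 ± 4.59 CPM in wild type. For DOK7 and dok7a they were 3.18 ± 1.69 CPM in mutants and 10.8 ± 3.32 CPM in wild type, and 12.3 ± 6.65 CPM in mutants and 12.0 ± 6.46 CPM in wild type. None of these 5 paralogs was called between genotypes by edgeR, with adjusted p = 0.174 in injured and 0.0766 in sham hearts for TRIM3, and 0.832 in injured and 0.619 in sham hearts for txlnbb. The ST7 pair fell under that level. Its member averaged 0.564 ± 0.738 CPM in mutants and 3.94 ± 1.46 CPM in wild type, the second ID (ENSDARG00000112691) 9.42 ± 1.78 CPM in mutants and 5.06 ± 2.25 CPM in wild type, and their sum was 9.98 CPM in mutants and 9.00 CPM in wild type.

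Several members were the minor copy of a pair whose other copy was more abundant. FIBIN averaged 0.151 ± 0.167 CPM in mutants and 6.57 ± 4.50 CPM in wild type, and its second ID (ENSDARG00000087196) 50.1 ± 18.5 CPM in mutants and 67.7 ± 28.9 CPM in wild type. SLIT1 was at 0 in mutants and 5.99 ± 3.46 CPM in wild type, and its second ID (ENSDARG00000044954) averaged 35.5 ± 13.2 CPM in mutants and 58.9 ± 14.5 CPM in wild type. The second SERF2 ID (ENSDARG00000074340) averaged 99.9 ± 15.1 CPM in mutants and 97.1 ± 5.06 CPM in wild type, and the second STX12 ID (ENSDARG00000098813) 41.6 ± 8.80 CPM in mutants and 40.7 ± 6.64 CPM in wild type. By edgeR none of these 4 other copies was called, the smallest adjusted p being 0.0958 for the second SLIT1 ID in injured hearts.

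**Figure D5:**
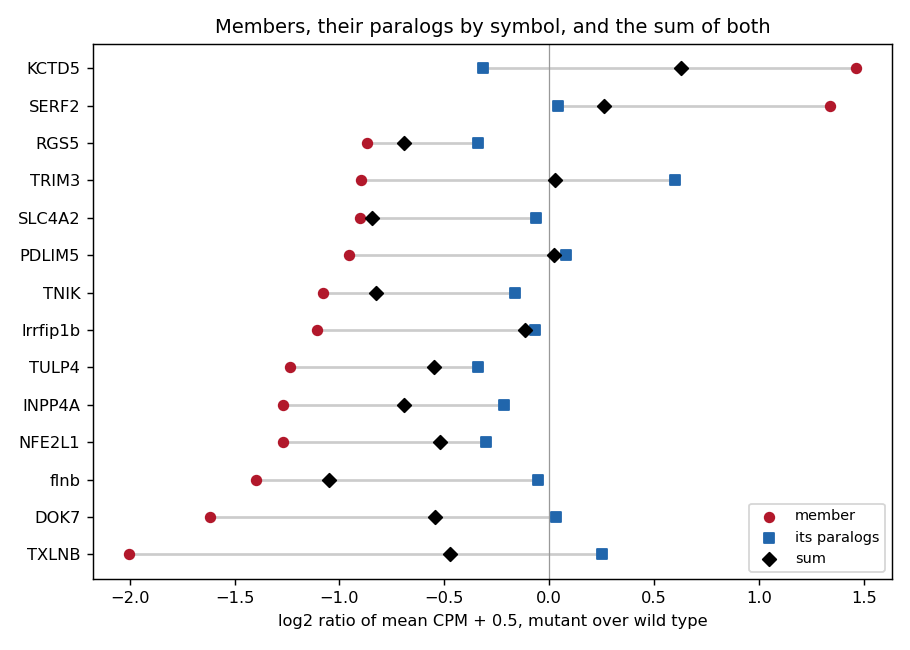
Log2 ratio of mean CPM + 0.5, mutant over wild type, of 14 members (circles), of their paralogs by symbol (squares) and of the sum of both (diamonds), for members of at least 10 CPM whose paralog reached 5 CPM in a genotype. For TRIM3 the ratio of the sum is 0.03 and for PDLIM5 0.02, while for flnb it stays at -1.05.

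Position in the genome was read from gene order in RefSeq (assembly GRCz12tu) by symbol, where 63 of the 126 genes, or 50%, had an entry. As this is under 80%, a check of the share of members per chromosome is void. Among genes with an entry, pi4kab, SNAP29 and cltcl1 lie on chromosome 8 with 1 such gene between neighbours, and all 3 were lower in mutants. On chromosome 6, fam210b and nufip1 had 9 genes between them, and both were lower. No other member with an entry had another within 10 genes. How often genes picked without regard to genotype would lie this close was not tested. The chromosome of ankrd1a, 17, held 2 of the 63, and 611 of the 16968 gene IDs with an entry. FAM167B had 53 genes between itself and ankrd1a and DGLUCY 201, and both were lower in mutants.

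Lists of 7 cell types and 6 pathways show what else differed between the same libraries. Their summed levels below are on column sums, without TMM scaling, while the calls are on the TMM scale. Outside the 126 genes, 166 genes of these 13 lists passed the filter, and edgeR called 2 higher and 11 lower in injured mutants than in injured wild type, or 7.83%, against 2.56% of all genes (1.12% higher and 1.44% lower). In sham hearts it called 5 higher and 2 lower, or 4.22%, against 5.81% of all genes (2.62% higher and 3.19% lower). In both treatments the genes called higher include acta2, 1 of the 9 genes left out above, whose genotype difference the rule used. The same holds for the counts of the cell type lists. The cell type lists held 78 of the 166 genes, with 2 called higher and 9 lower in injured hearts, or 14.1%, and 3 higher and 1 lower in sham hearts, or 5.13%. The pathway lists held 88, with 0 higher and 2 lower in injured hearts, or 2.27%, and 2 higher and 1 lower in sham hearts, or 3.41%. Without replicate 1 of the injured mutants the count over all 13 lists in injured hearts was 5, and it was 7 without their replicate 2, 6 without their replicate 4, and 8 without replicate 2 or replicate 3 of the injured wild type. In sham hearts it was 4 without replicate 4 of the sham mutants or replicate 2 of the sham wild type, and 11 without replicate 1 of the injured wild type.

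Markers of the atrium and the bulbus arteriosus, the outflow vessel, had a higher sum in mutants, with 2 called higher and 1 lower of 13 in injured hearts and 2 higher and 0 lower in sham hearts. The summed level of the 16 genes was 4186 to 5635 CPM in injured mutants, against 1680.4 to 3981 CPM in injured wild type, and 1280.5 to 1997 CPM in sham mutants, against 702 to 1170.0 CPM in sham wild type. The groups did not overlap in either treatment, but without acta2 they overlapped in sham hearts. Of these sums, the single ID ENSDARG00000079564 held 3031 to 4191 CPM in injured mutants and 849 to 1698 CPM in injured wild type. In sham hearts it held 533 to 1483 CPM in mutants and 160 to 605 CPM in wild type. The median log2 fold change of the 13 tested genes was 0.14 in injured and 0.01 in sham hearts, so the higher sum does not describe the markers as a set. Of the 2 IDs with the symbol of MYH6, a heart myosin listed here as an atrial marker, ENSDARG00000079564 was higher in both, at a log2 fold change of 1.53 ± 0.35, adjusted p = 0.025 in injured and 1.42 ± 0.35, adjusted p = 0.0215 in sham hearts (edgeR). The smooth muscle actin gene acta2, 1 of the 9 genes left out above, was at 1.53 ± 0.25, adjusted p = 0.00278 in injured and 1.84 ± 0.25, adjusted p = 0.000552 in sham hearts, a difference that the rule used. The other ID, ENSDARG00000090637, has the symbol in lower case, myh6, and was lower in injured mutants, at -2.16 ± 0.51, adjusted p = 0.0309 (edgeR). Symbols were matched without regard to case, and which ID marks the atrium was not tested. Of these markers none was at 0 in all libraries. The part of atrial or bulbus tissue in the levels of myl4 and the other members was not tested.

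Skeletal muscle, blood and fibroblast markers were lower in injured mutants where they were called. The calls were pvalb1 at -4.73 ± 1.096, adjusted p = 0.026, pvalb2 at -4.03 ± 1.03, adjusted p = 0.044 and TNNT3 at -3.34 ± 0.87, adjusted p = 0.0473, 3 of 14 skeletal muscle genes (edgeR). The globin genes hbaa1 and hbaa2 were 2 of 8 erythrocyte genes called, and TCF21, TBX18 and DCN were 3 of 12 epicardium and fibroblast genes, with TCF21 at -1.09 ± 0.23, adjusted p = 0.0141 (edgeR). The summed skeletal muscle level did not overlap in sham hearts, at 4252 to 5899 CPM in sham mutants, against 6029 to 8939.8 CPM in sham wild type, and overlapped in injured hearts, at 5075 to 12019 CPM in injured mutants, against 6078 to 9021 CPM in injured wild type. Erythrocyte sums were 591 to 1831 CPM in injured mutants, against 1726 to 9275 CPM in injured wild type, and 465 to 1247 CPM in sham mutants, against 1203 to 2389 CPM in sham wild type. In sham mutants the call on the epicardium and fibroblast list was 1 of the 2 POSTN IDs (ENSDARG00000104267), the matrix gene periostin, lower at -1.11 ± 0.27, adjusted p = 0.0195 (edgeR). Epicardium and fibroblast sums overlapped in both treatments, at 4423 to 7372 CPM in injured mutants, against 6447 to 7788 CPM in injured wild type, and 1035 to 1526 CPM in sham mutants, against 1175 to 1574 CPM in sham wild type. Their part in the levels of TXLNB, DOK7, CRYAB or fam210b was not tested.

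Neuron and glia markers were low throughout. Their 14 genes summed to 4.83 to 8.24 CPM in injured mutants, against 10.2 to 11.7 CPM in injured wild type, without overlap, and to 3.35 to 9.22 CPM in sham mutants, against 5.38 to 10.4 CPM in sham wild type, with overlap. SYT1 alone was at 30.7 to 86.8 CPM in wild type, above these sums. Of 3 neuron and glia genes tested, 0 were called between genotypes. Leukocyte sums overlapped, at 941 to 1897 CPM in injured mutants, against 1025 to 1454 CPM in injured wild type, and 237 to 556 CPM in sham mutants, against 153 to 259 CPM in sham wild type, with marco, a macrophage receptor, the 1 called gene of 18, higher in sham mutants. Endothelium and endocardium sums overlapped too, at 1126 to 1333 CPM in injured mutants, against 984 to 1269 CPM in injured wild type, and none of 10 genes was called.

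Outside the members, 2.27% of the pathway list genes were called in injured and 3.41% in sham hearts. The shares of all genes were 2.56% in injured and 5.81% in sham hearts. The counts by list below are no result about these pathways. Of 9 tested axonemal and ciliary genes other than CCDC39, 0 were called between genotypes in either treatment. Of 17 protein phosphatase 1 genes other than PPP1R9B, PPP1R13B (ENSDARG00000009142) and PPP1R27 were called higher in sham mutants and 0 in injured ones. Of 17 genes of the list of ankrd1 partners and the sarcomere stress response other than PDLIM5, FHL2, a titin-binding LIM protein, was the 1 called, lower in injured mutants at -1.13 ± 0.27, adjusted p = 0.0347 (edgeR). Of 11 nonsense-mediated decay genes 0 were called, and their summed level was 514 to 552 CPM in injured mutants, against 561 to 673 CPM in injured wild type, without overlap, and 436 to 551 CPM in sham mutants, against 459.7 to 502 CPM in sham wild type, with overlap. On the TMM scale the median log2 fold change of the 11 genes was -0.07 in injured and 0.06 in sham hearts.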

How the data were processed

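As read from the values, the authors deposited expected counts (estimates that can be fractional) for 32520 gene IDs in 16 libraries. Libraries were poly(A)-selected and stranded, per the labels' protocols. The submitters' processing notes name fastp 0.23.4, STAR 2.7.0 and 2.7.10 and RSEM 1.3.3, with no role for each. The genome build, and whether strand was used in counting, are not given in the sources used here, so overlapping and antisense genes are uncertain. Counts were rounded before tests, and CPM of the deposited estimated counts were used for the rule. Total counts of 5623721 to 12254719 per library set the precision, and intervals cover counting error only.

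The fit was edgeR 4.0.16 in R 4.3.3 (quasi-likelihood F test, filterByExpr, TMM, 4 group means over all 16 libraries, Benjamini-Hochberg adjustment over 14986 genes, threshold 0.05), tested on simulated data. Replicates are separate pools by their labels. Alternatives were DESeq2 1.42.0, RLE and column-sum scaling (the last chosen after seeing the data), other filters, fits of only the groups compared, the replicate number as a block, other rule thresholds, summed paralogs, and each library left out.

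The members, lists and tests were chosen with earlier results of these data known. Named with most detail were the 12 highest and the 12 lowest ratios of genotype means (TMM CPM plus 0.5) among named members of at least 10 CPM, members on the chromosome of ankrd1a, members called after injury in both genotypes, the 3 smallest interaction p, members whose paralog differed the other way, and the 3 just inside and outside each threshold. Other members are given by their range. Of 254 list names, 231 matched a symbol.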

Additional observations from a re-analysis of the deposited data

Results flagged for a closer look

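In 15 of 148 groups of 4 libraries, for the genes named by the rule, 1 library stood apart from the other 3 by Dixon's criterion. Chance meets it in about 1 in 20 groups where values are normally distributed, which need not hold for genes at a few counts. In mutants these were CRYAB at 4.03 CPM in replicate 1 of the injured mutants, with 0 to 0.294 CPM in the others, and myl4 at 1.88 CPM in the same library, with 4.09 to 4.37 CPM in the others. For flnb it was replicate 3 of the injured mutants, at 65.2 CPM against 32.9 to 34.9 CPM in the other libraries of the group. DGLUCY was at 14.5 CPM in replicate 2 of the sham mutants, with 8.98 to 9.70 CPM in the others.

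In injured wild type, SPOCK3 was at 629 CPM in replicate 4, with 332 to 375 CPM in the others, and RAD21 at 10.2 CPM in replicate 2, with 5.53 to 6.16 CPM in the others. Replicate 1 had 0.150 CPM of APOB, with 0 in the others, and 0.290 CPM of ENSDARG00000110634, with 0.126 to 0.146 CPM in the others. These were 1 count of APOB, and 1.93 counts of ENSDARG00000110634 against 1 count in each of the others.

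In sham wild type, replicate 3 had CCDC39 at 2.31 CPM, with 0 to 0.148 CPM in the others, PPP4R4 at 15.1 CPM, with 8.29 to 8.92 CPM in the others, grk5l at 10.8 CPM, with 8.73 to 8.91 CPM in the others, and APOB at 0.177 CPM, which is 1 count, with 0 in the others. Replicate 4 had SYT1 at 86.8 CPM, with 47.3 to 49.9 CPM in the others, and si:ch73-308b14.1 at 134 CPM, with 97.1 to 101 CPM in the others. Replicate 2 had flnb at 113 CPM, with 85.9 to 89.2 CPM in the others.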

How the results depend on the processing

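The rule gave 126 genes as stated, 114 on the TMM scale (79 of the 126 among them), 135 without mitochondrially encoded genes (113), 125 on rounded counts (125), 156 at 1.5-fold, and 104 with paralogs summed (102). It gave 60 at a mean of at least 10 CPM and 67 at 3-fold, since these thresholds are stricter. Leaving out 1 library gave 130 to 165 genes, with 122 to 126 of the 126 among them. The order is then demanded of fewer libraries, so a higher count is largely set by the rule. Members changed by injury numbered 10 in mutants, with 15 of 97 tested in a fit of only the groups compared, 14 by DESeq2, 8 on column sums and 6 to 14 when 1 library was left out, and 18 in wild type, with 8 to 20, and 10 on column sums. The interaction gave 0 in all settings. Apart from column sums, the share of all genes called was not counted for the alternative fits. List genes changed by genotype numbered 13 in injured hearts, with 5 in a fit of only the groups compared and 5 to 12 when 1 library was left out. In sham hearts they numbered 7, with 12 by DESeq2, 13 in a fit of only the groups compared and 4 to 11 when 1 library was left out. For the fits that changed a count with the same libraries, the cause was not tested. Among single genes, 2178 values kept their direction and, for changes with injury, their side of the threshold. Another 49 lost and 43 gained a call, and 55 changed sign, of which 0 were called in either setting. The values kept include log2 ratios of genotype means, which have no threshold. The rule fixes their direction when 1 library is left out, so they are no sign of stability. On column sums 23 log2 changes with injury that were negative on the TMM scale were positive. In mutants these were CCDC39 at 0.14, tcn2 at 0.028, SMYD1 at 0.076, fbxo6.1 at 0.011, PXMP4 at 0.27, bcam at 0.26, SYT1 at 0.13, NECAB3 at 0.30, spg11 at 0.18, DOK7 at 0.26, CHSY3 at 0.045, grk5l at 0.28, RAD21 at 0.0063 and STX12 at 0.082. In wild type they were SMYD1 at 0.069, fbxo6.1 at 0.24, PXMP4 at 0.070, bcam at 0.079, SPOCK3 at 0.042, TRIM3 at 0.27, PDLIM5 at 0.19, grk5l at 0.26 and si:ch73-308b14.1 at 0.19. With 1 library left out, 29 changed sign, with these ranges over all libraries left out. In mutants they were CHSY3 at -0.55 to 0.050, CRYAB at -3.93 to 0.15, DOK7 at -0.56 to 0.20, NECAB3 at -0.26 to 0.11, PXMP4 at -0.18 to 0.040, grk5l at -0.21 to 0.019, si:ch73-308b14.1 at -0.048 to 0.25, smpd5 at -0.34 to 0.39 and spg11 at -0.35 to 0.053. In wild type they were APOB at -1.86 to 1.48, CCDC39 at -2.23 to 1.78, ENSDARG00000110634 at -1.25 to 0.34 and flnb at -0.24 to 0.19. The other 3 were of flnb in wild type, at -0.000535 without the filter on low counts, -0.00179 with at least 1 CPM in 4 libraries and -0.056 with the replicate block.

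Replicate numbers were not used to pair the samples in the main fit. Deviations of same-numbered libraries correlated at -0.15 to 0.14 between injured and sham mutants, -0.12 to 0.09 between injured and sham wild type, 0.03 to 0.21 between genotypes in injured hearts and -0.01 to 0.15 in sham hearts. Between genotypes, libraries of unlike number correlated at -0.31 to 0.19 in injured and -0.13 to 0.06 in sham hearts. Whether libraries of the same number shared a batch was not tested. With the replicate block the counts were 10 members in mutants, 16 in wild type, 0 for the interaction, and 9 list genes in injured and 6 in sham hearts.

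A level of 2 CPM is 11.2 counts in the shallowest and 24.5 counts in the deepest library, which limits how well libraries can be ordered for the weakest members.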

Other observations

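On the TMM scale, 35 genes outside the 126 met the rule, 7 of which are described here after their values were seen. Higher in mutants were MTPN, a regulator of muscle growth and actin capping, with a mean of 143 CPM in mutants and 77.3 CPM in wild type, and the ubiquitin ligase gene wwp2, at 124 CPM in mutants and 64.7 CPM in wild type. The calcium sensor gene VSNL1 averaged 24.3 CPM in mutants and 6.12 CPM in wild type. Lower in mutants were SNTB1, a syntrophin of the dystrophin complex, at 7.60 CPM in mutants and 21.7 CPM in wild type, and SPHKAP, a kinase anchor, at 3.31 CPM in mutants and 14.3 CPM in wild type. CHRM2, the muscarinic receptor through which the vagus slows the heart, averaged 2.05 CPM in mutants and 6.12 CPM in wild type. The metalloprotease inhibitor gene TIMP4 averaged 2.04 CPM in mutants and 5.52 CPM in wild type. On column sums these genes did not meet all parts of the rule.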
